A study of Sus scrofa with 21 samples.

Results

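Remote myocardium (RM) taken 6 weeks after a myocardial infarction (MI) was compared with RM taken 4 weeks after MI. The comparison rested on 6 of the 21 arrays of the series, 3 per stage, picked by their tissue and time labels. At 6 weeks the arrays came from pigs 2, 3 and 5, and at 4 weeks from pigs 18, 20 and 22, so that each pig was sampled at a single stage. All 6 were Landrace x Large White females, of 30 to 40 kg at surgery, with no genetic modification or drug named in the labels. In all of them the circumflex artery's first marginal branch had been tied off with a double ligature. The methods of the study name anaesthetics, analgesics, a muscle relaxant and an antibiotic given around that surgery. The sample names give 45 days for the 6-week pigs and 30 days for the 4-week pigs. RM was the interventricular septum, away from the scar, with 1 biopsy per pig. The series also holds the infarct core (IC) of the same 6 pigs, RM and IC of 3 pigs at 1 week, and control myocardium (CM) of 3 pigs without MI, called sham-operated in the sample labels and healthy in the methods of the study. The question was whether septal gene expression differed between the later and the earlier of these stages.

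After an infarct, the muscle that keeps its blood supply takes over the load of the lost muscle. Its myocytes can enlarge, return to a fetal gene programme and shift their use of fuels, while fibroblasts between them lay down matrix. These changes in the spared wall are one part of ventricular remodelling, the course that can end in heart failure. Septal tissue holds myocytes, fibroblasts, vessels and resident immune cells together, and in such bulk tissue fewer cells of a type and less RNA per cell cannot be told apart.

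Expression was read on the GeneChip Porcine Genome Array as log2 signals of 24123 probe sets, of which 12180 exceeded 3 in at least 10 of the 21 arrays and were tested. Pairs of arrays of one stage correlated at r = 0.968 to 0.986 and pairs across stages at r = 0.956 to 0.975. The array of pig 5 at 6 weeks sat farthest from the 4-week arrays (r = 0.956 to 0.959). The muscle label held in all 6 arrays, in which the mean log2 signal of 14 sarcomere genes was 11.55 to 11.67 at 6 weeks and 11.66 to 11.76 at 4 weeks. MYH7, the slow myosin heavy chain of the ventricle, averaged 12.92 at 6 weeks and 13.01 at 4 weeks, and its log2 FC was −0.09 ± 0.15 (SE, adjusted P value 0.876, limma).

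RM at 6 weeks differed from RM at 4 weeks in 77 differentially expressed probe sets (DEPS, adjusted P value below 0.05 by limma), 0.632% of those tested. Of these, 63 (0.517%) were lower at 6 weeks and 14 (0.115%) were higher. With 3 pigs per stage, the P values rest on a spread between pigs that was pooled over all 7 groups of the series. The RM and IC arrays of a pig were taken as independent in that fit. With the spread of the 6 compared arrays alone, 23 probe sets passed, and 17 of these were among the 77. The falls included SKAP2, a signalling adaptor of blood cells, NR4A2, an immediate early nuclear receptor, and single probe sets of ACADVL, SDHA and GJA1, genes of fatty acid oxidation, the citric acid cycle and gap junctions. The rises included CLOCK, LPHN2, ALDH4A1 and IGFBP1. The fixed lists of sarcomere, respiratory chain, collagen and natriuretic peptide genes gave no DEPS, with SDHA counted in the citric acid cycle list.

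The 3 arrays of one stage lay beyond the 3 of the other in all 77 DEPS, as in 18.8% of the probe sets tested. The absolute log2 FC reached 1 in 46 DEPS, 37 lower and 9 higher, and its median over the 77 was 1.07. At an unadjusted P value below 0.05 there were 955 lower (7.84%) and 403 higher (3.31%) probe sets, 11.1% in all, and the median log2 FC of all 12180 was −0.04. When each array was first centred on its median, the split of the calls was 36 lower and 23 higher, and 50 of these were among the 77. The count rested in part on single pigs. Without pig 20 of the 4-week group 26 probe sets passed, without pig 22 of that group 37, and without pig 18 of that group 116. Without pig 3 of the 6-week group 38 passed and without pig 5 of that group 42. Without pig 2 of the 6-week group 74 passed. Not all of these were among the 77. Of the 77, 26 were kept without pig 20, 34 without pig 22 and 59 without pig 18. Without pig 3, pig 5 and pig 2, 36, 40 and 54 of the 77 were kept. Through all 6 of these fits 24 of the 77 DEPS passed, 21 lower and 3 higher, among them CDIPT, ACADVL, NFIA, SDHA, ARMCX2, LARP1, CBFB and CLOCK. These 24 also included control probe sets of the array, described below, for thr, actin and 5S ribosomal RNA. The first SKAP2 probe set and PSMF1 missed the threshold only without pig 20, and NR4A2 only without pig 3. IGFBP1, MAP4, ALCAM and IKBKG passed in 3 of the 6 fits, and SPAG16, TGIF1 and TMEM40 in 2. GJA1, PPP1R15A, ALDH4A1, KIAA1045 and a second NFIA probe set passed in 1 of the 6 fits, and BCAT2, DUSP6 and USP9X in 0.

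The arrays of the stages also differed in control transcripts that are not pig genes. The dap and thr transcripts of a bacterium are spiked into RNA before labelling, and each has probe sets at its 3′ end, its middle and its 5′ end. The 5′ probe set of thr was at 1.40, 1.24 and 2.17 in the 6-week arrays, against 4.17, 4.11 and 4.19 in the 4-week arrays (log2 FC −2.55 ± 0.44, SE, adjusted P value 0.0071). Its 3′ probe set was at 5.64, 5.68 and 5.69 at 6 weeks, against 5.95, 5.68 and 5.65 at 4 weeks, with a log2 FC of −0.09. The stages were therefore apart at the 5′ end and overlapped at the 3′ end.

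The difference of 3′ minus 5′ signal was 3.50 to 3.64 for dap and 3.52 to 4.44 for thr at 6 weeks, against 1.36 to 1.86 and 1.46 to 1.78 at 4 weeks. Pig transcripts on the same control panel showed it too. For actin it was 3.97 to 4.80 at 6 weeks and 2.82 to 3.22 at 4 weeks, and for the elongation factor EF1alpha 2.07 to 2.15 at 6 weeks and 1.04 to 1.43 at 4 weeks. For GAPDH it was 0.22 to 0.33 at 6 weeks, against −0.07 to 0.05 at 4 weeks. In these 5 transcripts this difference did not overlap between the stages. It overlapped in lys and phe, which are also spiked before labelling, and in bioB, a control of the hybridization. In cre, another hybridization control, the difference was slightly smaller at 6 weeks (0.42 to 0.48) than at 4 weeks (0.49 to 0.60). The levels of lys and bioB were themselves apart. The 3′ probe set of lys was at 4.00 to 4.23 at 6 weeks and 3.29 to 3.57 at 4 weeks. That of bioB was at 6.24 to 6.47 at 6 weeks and 5.68 to 5.89 at 4 weeks. Neither passed (adjusted P value 0.428 and 0.466, limma), and their 5′ probe sets were also higher in each 6-week array. Of the 77 DEPS, 6 were control probe sets: the 5′ ones of actin (2), EF1alpha (1) and thr (2), all lower, and the one for 5S ribosomal RNA, which was at 6.25, 4.65 and 5.69 at 6 weeks and 2.80, 2.13 and 1.97 at 4 weeks. The IC arrays of the same pigs had a dap difference of 3.35 to 5.10 at 6 weeks and 1.41 to 1.82 at 4 weeks. The 1-week RM arrays (2.26 to 2.51) and the CM arrays (2.02 to 2.19) lay between for dap, while for EF1alpha the CM arrays (2.10 to 2.35) lay with those at 6 weeks. The labels give no date or batch of labelling. The titles number the 6-week RM and IC arrays as a series of their own, marked with the days, without saying why. Since all arrays of a stage share these 3′ minus 5′ values, a labelling set and the stage cannot be told apart. With the mean of the dap and thr differences as a covariate, 0 of 12180 probe sets passed (1011 at an unadjusted P value below 0.05), all 77 kept their sign, and the median SE was 0.43 in place of 0.19.

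**Figure D1:**
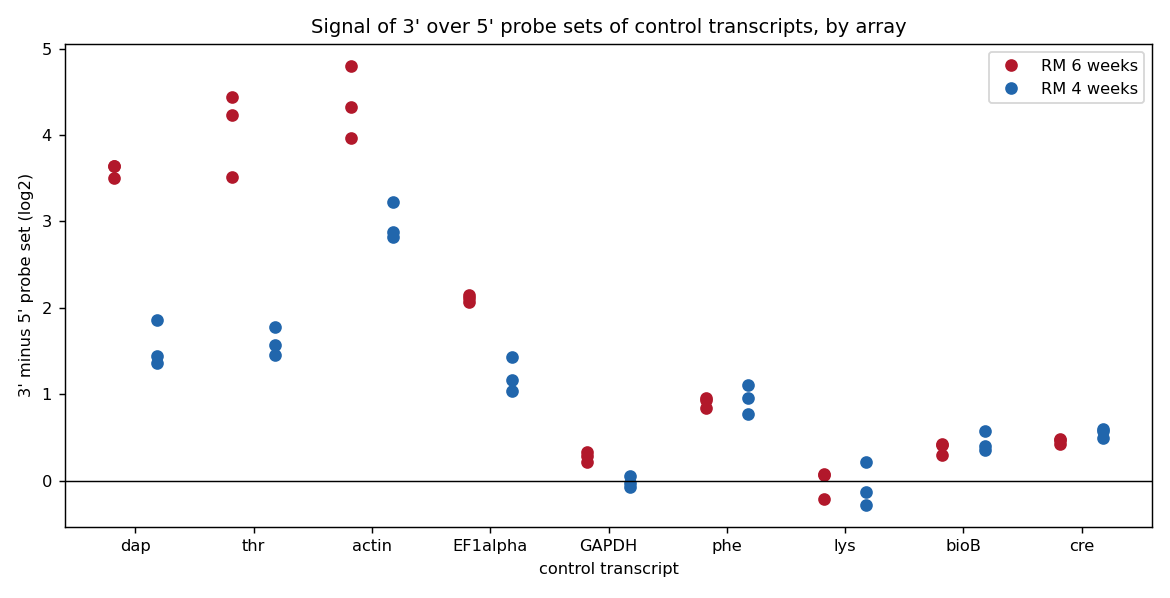
Signal of the 3′ probe set minus the 5′ probe set (log2) of 9 control transcripts, with 1 point per array, for RM at 6 weeks (red, left) and RM at 4 weeks (blue, right). The points of the stages are apart for dap, thr, actin, EF1alpha, GAPDH and, by a small gap, cre, while those of phe, lys and bioB overlap.

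Apart from the controls there were 71 DEPS, 58 lower and 13 higher, and 59 of them carried a gene name, for 55 genes. The platform gave 45 of these names, and 14 came only from the study's match to a human gene, including those of GJA1, ARMCX2, LARP1, ATP5SL, CBFB, DUSP6, SPAG16 and KIAA1045. In 4 of these genes a second probe set was also a DEPS. Another probe set of the same gene, not itself a DEPS, had been tested for 35 of these genes. Those 40 other probe sets are by definition not called. In limma 8 of them had an unadjusted P value below 0.05, all in the direction of the gene's DEPS. In all 40 the log2 FC was smaller in size than that of the DEPS. The DEPS were selected by their P values, which favours a larger log2 FC in them. The brightest other probe set was brighter than the DEPS in 34 of the 35 genes, and the median log2 FC over the 35 genes was −0.24 for it and −1.02 for the DEPS.

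The array's probe set names number the alternative sequences of one transcript cluster. Among tested pig probe sets with such a name, 12.5% had a number of 2 or more, and among the 58 DEPS that fell 32 did (55.2%). Of probe sets numbered 1, 0.35% were called, and of those numbered 2 or more 2.24%. Where on its transcript each probe set lies was not analysed here. Beyond the covariate fit, whose covariate followed the stage, the part of the 3′ to 5′ difference in these calls was not tested.

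**Figure D2:**
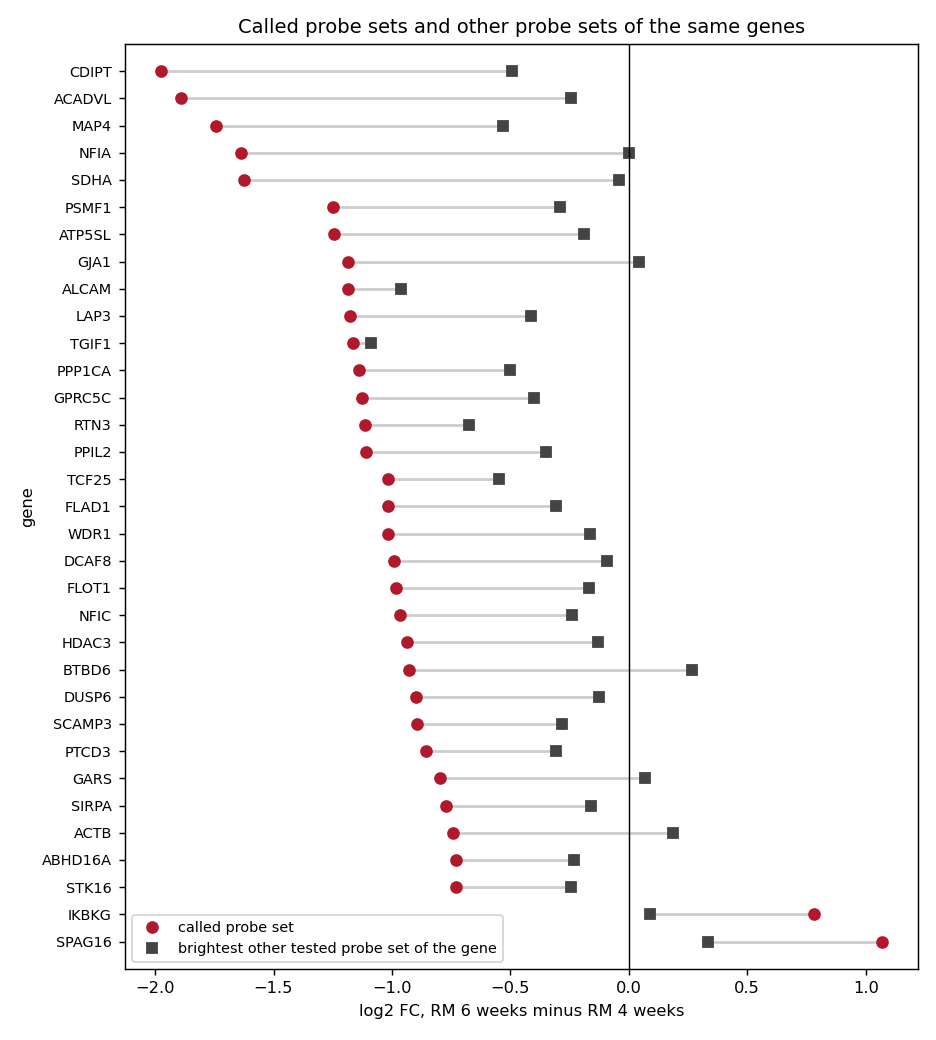
Log2 FC (RM at 6 weeks minus RM at 4 weeks) of the called probe set (red circle) and of the brightest other tested probe set (grey square) of the same gene, for 33 of the 35 genes. Every grey square lies nearer to 0 than its red circle, and the grey ones are by definition probe sets that were not called.

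SKAP2 had the largest fall among the DEPS. This adaptor protein links Src family kinases to adhesion in myeloid and lymphoid cells. Its first probe set was at 1.95, 3.78 and 3.18 at 6 weeks, against 6.18, 6.39 and 5.29 at 4 weeks, a log2 FC of −2.98 ± 0.53 (SE, adjusted P value 0.0098, limma). Its second was at 3.26, 4.91 and 4.41 at 6 weeks, against 7.10, 6.96 and 5.90 at 4 weeks (log2 FC −2.46 ± 0.46, adjusted P value 0.0142). Neither probe set had overlapping stages. On the first the 4-week values lay within the range of CM (4.85 to 6.78), and on the second those of pigs 18 and 20 did (CM 6.17 to 7.38), while pig 22 lay below it. RM at 6 weeks was also lower than CM on both (adjusted P value 0.0414 and 0.0361). In IC of the same pigs the log2 FC between the stages was −0.66 on the first and −0.18 on the second, and neither passed. LAPTM5, the macrophage marker with the largest difference, was 4.56 at 6 weeks and 5.90 at 4 weeks (adjusted P value 0.159), while the other 6 macrophage markers measured had a log2 FC of less than 0.2 in size.

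NR4A2 is an orphan nuclear receptor whose transcript appears within minutes of a stimulus. It was at 2.71, 1.76 and 2.03 at 6 weeks, against 4.56, 4.01 and 4.71 at 4 weeks. The log2 FC was −2.26 ± 0.38 (SE, adjusted P value 0.0068). All 6-week values lay under the filter level of 3, where background makes up much of the signal. CM was at 2.19 to 2.84, near the 6-week values, and RM at 4 weeks exceeded CM (adjusted P value 0.0246). The IC log2 FC of NR4A2 was −0.95 (adjusted P value 0.176).

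Of 24 immediate early genes measured, 2 passed, both lower: NR4A2 and PPP1R15A, which directs protein phosphatase 1 to the translation factor eIF2alpha under stress. PPP1R15A was at 4.98, 4.25 and 4.73 at 6 weeks and 5.75, 5.44 and 5.84 at 4 weeks (log2 FC −1.02 ± 0.23, SE, adjusted P value 0.0476). The list's median log2 FC was −0.22, with 6 of 24 above 0, beside −0.04 for all 4976 genes taken at 1 probe set each. FOS, ATF3 and NR4A3 had log2 FC of −1.59, −1.58 and −1.68 with SEs of 0.94 to 1.03, and did not pass (adjusted P value 0.550 to 0.581). EGR1 (0.13) and JUN (−0.24) were close to 0. At 1 probe set per gene, 12 of the 4976 genes were called, 0.241%. The list of cAMP and calcium response genes shares NR4A2, its only call among 9 genes, and NR4A3.

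**Figure D3:**
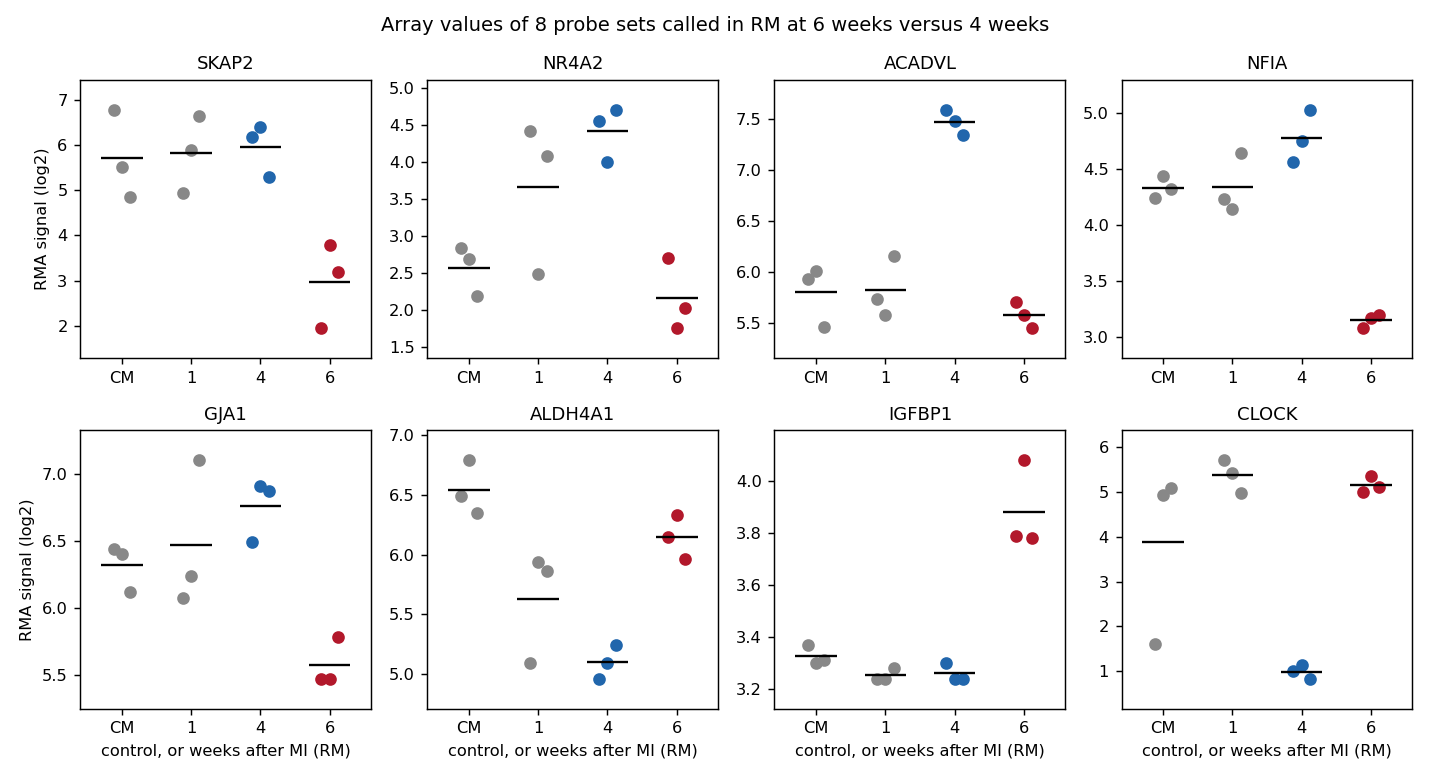
RMA signal (log2) of 8 called probe sets in CM and in RM at 1, 4 and 6 weeks, with 1 point per array and the group mean as a bar. In each panel the 3 arrays at 6 weeks (red) lie wholly above or wholly below the 3 at 4 weeks (blue), and CM and 1-week arrays (grey) show on which side the uninjured and early hearts lay.

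Mitochondrial enzymes appeared among the falls by single probe sets. ACADVL carries out the first step of long-chain fatty acid oxidation. Its called probe set was at 5.71, 5.58 and 5.45 at 6 weeks, against 7.59, 7.48 and 7.34 at 4 weeks (log2 FC −1.89 ± 0.22, SE, adjusted P value 0.00043). Its other probe set, brighter by far, was at 9.92, 9.80 and 9.20 at 6 weeks, against 10.22, 9.69 and 9.75 at 4 weeks, and the stages overlapped (log2 FC −0.24, adjusted P value 0.756). On the called probe set the 4-week arrays stood above CM (5.46 to 6.01), and the 6-week arrays lay at the level of CM.

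SDHA, the catalytic subunit of succinate dehydrogenase, was at 6.14, 6.37 and 5.78 at 6 weeks, against 7.80, 7.75 and 7.62 at 4 weeks on its called probe set (log2 FC −1.62 ± 0.22, SE, adjusted P value 0.0011). Its brighter probe set had a log2 FC of −0.04 ± 0.16. BCAT2, the mitochondrial transaminase of branched-chain amino acids, had 1 tested probe set and a log2 FC of −0.98 ± 0.22 (adjusted P value 0.0442).

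The lists of energy metabolism held no call when each gene was taken at its brightest probe set. None of 25 fatty acid oxidation genes, 22 citric acid cycle and pyruvate dehydrogenase genes, 38 respiratory chain genes or 17 glycolysis genes passed (limma), and at an unadjusted P value below 0.05 there were 3 genes, all glycolytic. Their median log2 FC was −0.08, 0.06, 0.08 and 0.01. Of the respiratory chain genes 73.7% were above 0, beside 42.8% of all genes, and the mean level per array was 10.21 to 10.43 at 6 weeks and 10.19 to 10.21 at 4 weeks, which overlapped.

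GJA1 encodes connexin 43, the main gap junction protein between ventricular myocytes. One probe set, named GJA1 only by the study's match to a human gene, was at 5.47, 5.47 and 5.78 at 6 weeks, against 6.49, 6.91 and 6.87 at 4 weeks (log2 FC −1.19 ± 0.25, SE, adjusted P value 0.0346). The brighter probe set that the platform names GJA1, with a mean of 10.25 over all arrays, gave 0.04 ± 0.19. Of 14 genes of calcium cycling and ion channels 0 passed (limma), and 2 had an unadjusted P value below 0.05. RRAD, an inhibitor of the calcium channel, was at 9.04, 9.59 and 9.42 at 6 weeks, against 9.94, 10.06 and 10.28 at 4 weeks (adjusted P value 0.236). GJA5, the connexin of conduction tissue and atria, was at 3.79, 4.05 and 4.57 at 6 weeks, against 4.91, 4.70 and 4.86 at 4 weeks (adjusted P value 0.285). The median log2 FC of this list was 0.03 and its mean −0.12.

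Some DEPS were of transcription factors or their partners, CLOCK among the rises and NFIA, NFIC, CBFB and TGIF1 among the falls. NFIA, a nuclear factor I protein that binds DNA as a dimer, gave the smallest P value of the comparison. It was at 3.08, 3.17 and 3.20 at 6 weeks, against 4.56, 4.75 and 5.03 at 4 weeks (log2 FC −1.64 ± 0.17, SE, adjusted P value 0.00014). CM was at 4.24 to 4.44, and RM at 6 weeks was lower than CM (adjusted P value 0.0073). A second NFIA probe set fell by 0.79 on the log2 scale (adjusted P value 0.0442), and the third and brightest had a log2 FC of 0.00 ± 0.12. NFIC, of the same family, had −0.96 ± 0.13 on its called and −0.24 ± 0.17 on its brighter probe set.

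CBFB, the partner subunit of the DNA-binding RUNX factors, was at 2.04, 2.19 and 1.97 at 6 weeks, against 3.04, 3.42 and 3.31 at 4 weeks (log2 FC −1.19 ± 0.19, SE, adjusted P value 0.0035). CM was at 3.48 to 3.91, and RM at 6 weeks was lower than CM (adjusted P value 0.00059). TGIF1, a repressor that restrains TGF-beta signalling, had −1.16 ± 0.25 (adjusted P value 0.0380), and its other probe set nearly the same value, −1.09 ± 0.26, without passing (adjusted P value 0.0706). ALCAM, a cell adhesion molecule of the immunoglobulin family, likewise had −1.19 on the called and −0.96 on the other probe set.

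Several falls were of broadly expressed genes. CDIPT, which makes phosphatidylinositol, had −1.98 ± 0.24 (SE, adjusted P value 0.00076), with 2.43, 2.16 and 1.79 at 6 weeks and 3.67, 4.28 and 4.35 at 4 weeks. The other tested probe sets of CDIPT, both brighter, had −0.49 and 0.19. MAP4, a microtubule protein of muscle and other tissues, had −1.74 ± 0.32 on its called probe set and −0.53 and −0.16 on the other 2. PSMF1, an inhibitor of the proteasome, had −1.25 ± 0.21 on its called probe set and −0.29 on a brighter one. LARP1, which binds mRNAs of the translation machinery, had −1.31 ± 0.17. ARMCX2, ATP5SL and PPIL2 completed the 15 genes with the largest falls, at log2 FC of −1.50, −1.24 and −1.20. Brighter probe sets of ATP5SL and PPIL2 had −0.19 and −0.35. For ARMCX2 and LARP1 no brighter probe set was tested. DUSP6, a phosphatase of ERK kinases, had −0.90 ± 0.20 on a called probe set and −0.13 and −0.09 on the others. Of the 63 falls, 18 had a 6-week mean under 3.

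The rises were fewer. CLOCK encodes a core transcription factor of the circadian clock, and LPHN2 an adhesion receptor coupled to G proteins. Both names come from the study's match of the probe set to a human gene. CLOCK was at 4.98, 5.35 and 5.09 at 6 weeks, against 1.01, 1.14 and 0.84 at 4 weeks (log2 FC 4.14 ± 0.57, SE, adjusted P value 0.0011). LPHN2 was at 5.08, 5.42 and 5.30 at 6 weeks, against 1.22, 1.31 and 1.64 at 4 weeks (log2 FC 3.88 ± 0.69, adjusted P value 0.0098). The 4-week arrays were thus near the lowest signals of the array, so that the log2 FC says little of the true size of the change.

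For CLOCK the IC arrays followed the same split, with 6.12, 6.26 and 6.96 at 6 weeks and 1.00, 0.62 and 0.77 at 4 weeks. The RM arrays at 1 week lay at 4.97 to 5.69, and CM at 1.62, 4.93 and 5.08, of which 1 of 3 was low. LPHN2 had the same pattern, including the low array of the same CM pig (2.01, with 5.38 and 6.14 in the other CM pigs). Another 3 DEPS without a gene name rose by 4.76 to 6.56 on the log2 scale, with 4-week means under 3 as well. LPHN2 did not pass without pig 3 or without pig 20. The other clock genes measured, 5 on the fixed list, gave no call, with a median log2 FC of −0.06 (PER1 −0.18, CRY2 0.07, DBP 0.14, NFIL3 −0.39), and 0 of the 5 had an unadjusted P value below 0.05.

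ALDH4A1, a mitochondrial enzyme of proline breakdown, was at 6.15, 6.33 and 5.96 at 6 weeks, against 4.96, 5.09 and 5.24 at 4 weeks (log2 FC 1.05 ± 0.21, SE, adjusted P value 0.025). CM was at 6.35 to 6.79, so the 4-week arrays stood below CM (adjusted P value 0.0047) and the 6-week arrays nearer to it. SPAG16, a protein of the sperm axoneme, was at 4.72, 4.83 and 4.78 at 6 weeks, against 3.83, 3.77 and 3.51 at 4 weeks (log2 FC 1.07 ± 0.20, adjusted P value 0.0155), and at 4 weeks it also lay below CM (adjusted P value 0.0017). Its brighter probe set had a log2 FC of 0.33 ± 0.28.

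IGFBP1, which binds insulin-like growth factors in plasma, was at 3.79, 4.08 and 3.78 at 6 weeks, against 3.30, 3.24 and 3.24 at 4 weeks (log2 FC 0.63 ± 0.12, SE, adjusted P value 0.0148). CM (3.30 to 3.37) and RM at 1 week (3.24 to 3.28) lay with the 4-week arrays. USP9X, a deubiquitinase, was at 7.03, 6.96 and 7.07 at 6 weeks, against 6.35, 6.47 and 6.43 at 4 weeks (log2 FC 0.60 ± 0.12, adjusted P value 0.0237), and it was the only named rise with a 4-week mean above 6. IKBKG, the regulatory subunit of the kinase that activates NF-kappaB, TMEM40 and KIAA1045 rose by 0.78, 0.67 and 0.93 on the log2 scale, each with values under 5 in all 6 arrays. EF1ALPHA, the next named gene by P value in this direction, did not pass (log2 FC 0.89, adjusted P value 0.0624), while the 5′ control probe set of the same name was among the falls.

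Over the 37 fixed lists, 458 genes were measured and 2 were called, with 0 called without pig 3, and 1 without pig 20 or without pig 22. Complement and acute phase genes had one of the lowest medians, −0.66, with 11 of 12 below 0. The mean level of these 12 was 5.40, 5.33 and 5.02 at 6 weeks and 6.12, 5.75 and 5.71 at 4 weeks, and the stages did not overlap. C1R and C1S, the proteases of the first complement component, had log2 FC of −0.98 ± 0.31 and −0.86 ± 0.30 (SE), and SERPING1, their inhibitor, −1.14 ± 0.32, but 0 genes of the list passed (limma), with 5 at an unadjusted P value below 0.05.

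Antigen presentation genes had a median of −0.38, with mean levels of 6.02 to 6.15 at 6 weeks and 6.26 to 6.65 at 4 weeks, and no call among 18 (5 at an unadjusted P value below 0.05). CD74, the invariant chain of class II molecules, was at 4.25, 3.86 and 4.21 at 6 weeks, against 5.14, 5.11 and 4.98 at 4 weeks (log2 FC −0.97 ± 0.24, SE, adjusted P value 0.0742). PSMB8, a subunit of the immunoproteasome, was at 3.86, 3.34 and 4.10 at 6 weeks, against 4.5, 5.4 and 4.83 at 4 weeks (adjusted P value 0.153). Interferon-induced genes had a median of −0.59, no call among 14 (1 at an unadjusted P value below 0.05) and overlapping mean levels, 4.11 to 5.22 at 6 weeks and 4.73 to 6.27 at 4 weeks. The highest of these was pig 20 of the 4-week group, in which the interferon-induced RSAD2 was at 8.72, against 5.52 and 6.01 in the other 4-week pigs.

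The matrix genes had medians below that of all genes and no call. They were −0.30 for 9 collagens, −0.19 for 15 matrix glycoproteins and −0.45 for 8 matrix proteases and inhibitors, with 3, 4 and 1 genes at an unadjusted P value below 0.05. Of these lists only the proteases had stages that did not overlap in mean level (5.04 to 5.40 at 6 weeks, against 5.44 to 5.63 at 4 weeks). MMP2, a gelatinase, was at 5.37, 5.25 and 4.51 at 6 weeks, against 6.02, 5.45 and 6.09 at 4 weeks (adjusted P value 0.163). DCN, the proteoglycan decorin of fibroblasts, averaged 9.17 at 6 weeks and 9.75 at 4 weeks (adjusted P value 0.231). The 12 fibroblast markers measured had a median of −0.34, with 2 at an unadjusted P value below 0.05, and their mean levels overlapped (6.08 to 6.36 at 6 weeks, against 6.27 to 6.6 at 4 weeks). The part of the fibroblast share in the matrix values was not tested.

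In TGF-beta and BMP signalling 0 of 15 genes passed (limma, 2 at an unadjusted P value below 0.05). The ligand TGFB1 was at 4.10, 4.04 and 3.34 at 6 weeks, against 4.92, 4.42 and 4.65 at 4 weeks (log2 FC −0.84 ± 0.21, SE, adjusted P value 0.0932). The receptor BMPR1B moved the other way, at 4.82, 4.12 and 3.69 at 6 weeks, against 3.28, 3.01 and 3.51 at 4 weeks (log2 FC 0.94 ± 0.24, adjusted P value 0.0902). Of 9 angiotensin, endothelin and adrenergic genes 0 passed (2 at an unadjusted P value below 0.05), and EDNRA, the endothelin receptor of vascular muscle, came nearest with −0.78 ± 0.19 (adjusted P value 0.0706). The natriuretic peptide NPPB, a marker of wall stress, was at 6.07, 9.08 and 8.45 at 6 weeks, against 6.32, 6.95 and 6.83 at 4 weeks. Its stages overlapped (log2 FC 1.16 ± 1.57), as did those of NPPA (log2 FC −0.67 ± 1.61).

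Among cell type markers, none of 9 endothelial, 7 smooth muscle, 7 macrophage or 12 fibroblast genes was called (limma), and 3 of these 35 entries had an unadjusted P value below 0.05. Of the markers of lymphocytes, red blood cells and mesothelium 1 gene each was measured above the filter, of granulocytes and mast cells 0. The 3 adipocyte, 3 nerve and 5 conduction and atrial markers measured were all lower at 6 weeks in value, with medians of −0.80, −0.42 and −0.67, and 1 of these 11, GJA5, had an unadjusted P value below 0.05. Of the skeletal muscle markers 2 were measured, with log2 FC of 1.44 ± 1.04 (SE) for the myosin light chain MYL1, the highest value of the 4976 genes, and −0.02 for the creatine kinase CKM, and neither passed (adjusted P value 0.652 and 0.967). MYL1 was at 6.88, 3.98 and 7.82 at 6 weeks, against 3.54, 5.69 and 5.12 at 4 weeks, and the stages overlapped. The part of these cells in the results was not tested. The 55 ribosomal protein genes had a median log2 FC of 0.01 and mean levels of 10.84 to 10.91 at 6 weeks, against 10.82 to 10.91 at 4 weeks.

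**Figure D4:**
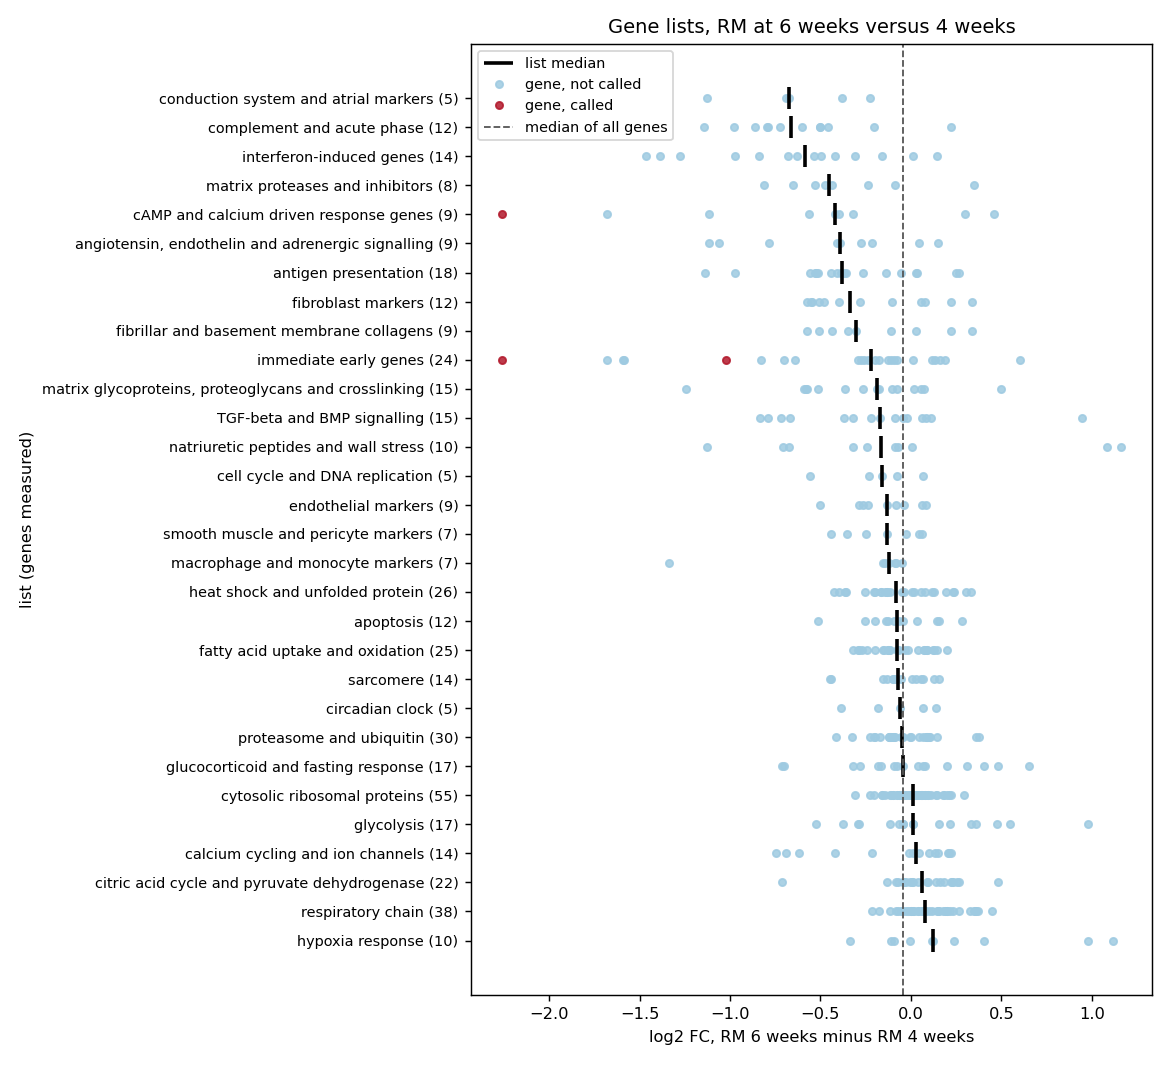
Log2 FC (RM at 6 weeks minus RM at 4 weeks) of the genes of 30 lists with at least 5 measured genes, with 1 point per gene and the list median as a bar. The 2 called genes (red), NR4A2 and PPP1R15A, are both immediate early genes, and the list medians run between −0.67 and 0.12 around that of all genes (dashed, −0.04).

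The genes that the study lists for RM in its main tables were taken as a further group. All 63 were measured. At the brightest probe set of each, 1 was called (NR4A2, lower) and 19 had an unadjusted P value below 0.05 (30.2%, beside 11.1% of all probe sets). Among the 4976 platform-named genes, also taken at the brightest probe set, 122 were higher and 342 lower at that threshold. Another 5, namely MAP4, NFIA, PSMF1, DUSP6 and SPAG16, had a called probe set that was not the brightest. In 5 of the 63 the platform gives the probe set another symbol than the study does. This list was drawn from the same arrays and is not independent evidence of a direction. Its median log2 FC was −0.17. DYNLT1, a light chain of the dynein motor, was at 7.81, 8.11 and 7.50 at 6 weeks, against 8.57, 8.24 and 8.75 at 4 weeks (adjusted P value 0.114). PPP1R12B, a subunit of muscle myosin phosphatase, was higher, at 5.06, 5.04 and 5.85 at 6 weeks, against 4.83, 4.72 and 4.45 at 4 weeks (adjusted P value 0.209).

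The DEPS were also set beside CM. RM at 4 weeks differed from CM in 21 of the 77 (1.08% of all probe sets tested did), and in all 21 RM at 6 weeks differed from RM at 4 weeks in the direction of CM. RM at 6 weeks differed from CM in 8 of the 77 (0.197% of all did). These 8 included both SKAP2 probe sets, NFIA, CBFB, LARP1, DUSP6 and 5S ribosomal RNA. In 48 neither stage passed against CM. The CM mean lay between the means of the stages in 67 of the 77. The DEPS were selected for a difference between those means, which favours a CM mean that lies between them. The share of all tested probe sets with the CM mean between the stages is not given here. A return towards CM can therefore not be read from the 67. The comparisons with CM share their RM arrays with the comparison of the stages, so that directions relative to CM are not independent of it.

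The infarct core of the same pigs was measured on other arrays. Its log2 FC between the stages had the same sign as that of RM in all 77 DEPS, and 45 of the 77 (58.4%) also passed in IC, 36 lower and 9 higher. In IC 473 probe sets passed, 3.88% of those tested (1.8% lower and 2.09% higher), and the 45 shared ones are 9.51% of these. For the 63 falls the median log2 FC was −1.03 in RM and −0.81 in IC, and for the 14 rises it was 1.14 in RM and 0.72 in IC. The tissues share the pigs and the control values given above. The share of all tested probe sets with the same sign in both tissues is not given here.

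Whether the change from 4 to 6 weeks differed between RM and IC was tested with the pig as a block. In limma 0 of 12180 probe sets (0%) passed, and 802 had an unadjusted P value below 0.05 (6.58%). The called ACADVL probe set had the smallest P value of this test among the DEPS, with a difference of −1.33 ± 0.21 (SE, adjusted P value 0.351), since it fell by 1.89 on the log2 scale in RM and was −0.56 in IC. The first SKAP2 probe set differed by −2.32 (adjusted P value 0.382). Among the 12180 a difference between the regions was therefore not shown, which does not show that they changed alike.

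**Figure D5:**
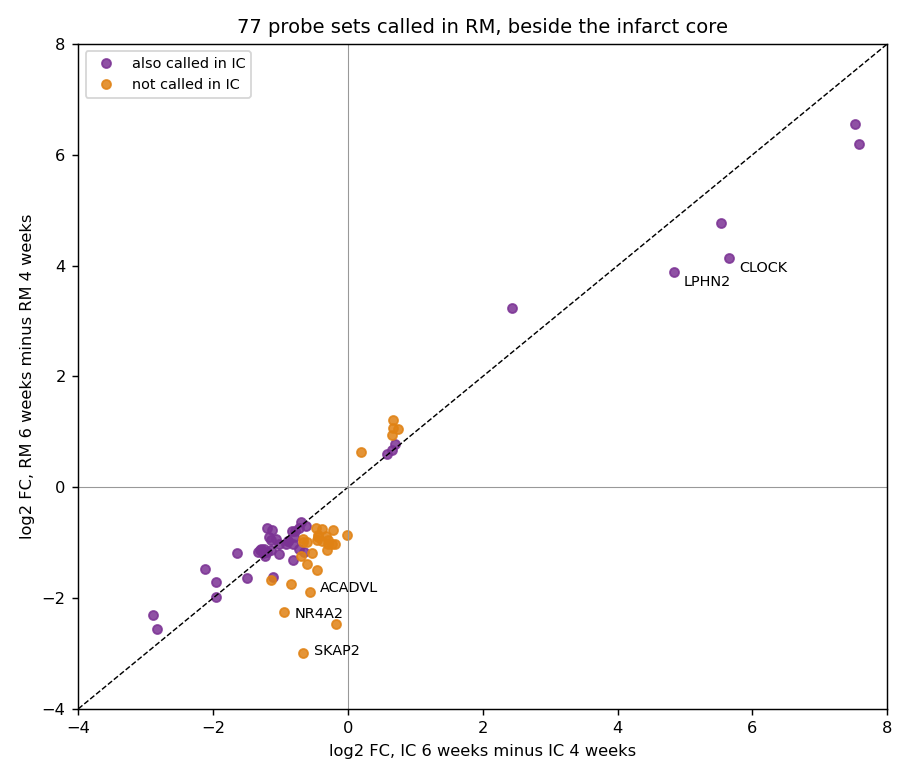
Log2 FC between 6 and 4 weeks of the 77 DEPS of RM, in RM (vertical) and in IC of the same pigs (horizontal), with the line of equal change dashed. All 77 points lie in the lower left or the upper right corner, and 45 of them (purple) were also called in IC.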

How the data were processed

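The authors made the deposited log2 values with RMA (background correction, quantile normalization and summarization of probe sets) from 21 arrays hybridized with RNA labelled by a 3′ IVT kit. Probe sets above 3 in at least 10 of 21 arrays were kept. In R 4.3.3, limma 3.58.1 fitted 7 group means over all 21 arrays, and P values were adjusted by Benjamini-Hochberg over all tested probe sets at a threshold of 0.05. The difference between regions was fitted over the 18 arrays of infarcted pigs with pig as a block. RM and IC arrays of a pig share its number in the labels, and their deviations from group means correlated at 0.0714 to 0.491 in 9 pigs. Exact permutation of 3 against 3 arrays cannot give a P value below 0.1. Unmapped columns numbered 0, and 0 pairs of arrays held the same values.

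Genes were named from the platform annotation where it gives 1 symbol, otherwise from the study's match to a human gene, whose tables were used for names alone. The study's columns of fold changes were not used. The rule for named genes took up to 15 genes with the largest change in each direction among the DEPS, the next named genes where a direction had under 10, up to 4 members of each list by moderated t, genes in the study's main tables, and control probe sets. BCAT2, NFIC, TGIF1 and DUSP6, and some members of lists, were named after their values were seen. Lists took 1 probe set per gene, the brightest. The comparison and lists were chosen with earlier results of these data known. The fits were tested on simulated data. Filters, scalings, array weights, other sets of arrays, left-out pigs and a covariate were tried as alternatives. Some results are not reported here.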

Additional observations from a re-analysis of the deposited data

How the results depend on the processing

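The count of 77 probe sets for RM at 6 weeks against RM at 4 weeks became 195 with no filter, 38 with a filter above 5 in at least 3 arrays, 379 with array weights, 23 in a fit over the 6 arrays alone, 143 at an adjusted P value below 0.1, 32 below 0.01 and 46 with an absolute log2 FC of at least 1. It was 39 genes with the mean of all probe sets of a gene. Leaving out 1 pig gave 26 to 116, of which 26 to 59 were among the 77. Chosen after seeing the data, the brightest probe set per gene gave 13 genes, 7 lower and 6 higher, and the spiked-control covariate gave 0. The covariate follows the stage closely (mean 3.83 at 6 weeks and 1.58 at 4 weeks), which widens the errors. Other scalings gave 59 to 65, of which 50 to 64 were among the 77. No paired analysis was possible because the pigs of the stages are different animals. With the pig as a random replicate block across RM and IC the count was 77, of which 75 were shared. The DEPS kept their sign wherever the same probe sets were refitted, whereas with the brightest probe set of a gene the sign could turn, as for GJA1 (0.04). For the difference between RM and IC the count was 0 in limma (802 at an unadjusted P value below 0.05), 0 with no replicate block, 0 without any 1 pig, and 1 with no filter. Among listed genes 2 passed, against 1 after centring on the median, 1 after cyclic loess and 0 to 2 without 1 pig. Apart from these, the cause was not tested. With 3 arrays per stage, a mean below 3 in the lower stage limits what can be read from 8 of the 14 rises and 18 of the 63 falls. Other DEPS had means just above 3 and are not in these counts. Examples are the first NFIA probe set (3.15 at 6 weeks) and IGFBP1 (3.26 at 4 weeks).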

Other observations

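With the mean of all tested probe sets of a gene, 3 genes without a called probe set of their own passed in limma. LRRK2, a large kinase, had a log2 FC of −0.72 (adjusted P value 0.0495), PDGFRL, a receptor-like protein, −0.82 (adjusted P value 0.0495), and RBM34, an RNA-binding protein, −0.53 (adjusted P value 0.0329). They were named after their values were seen.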
